A study of Mus musculus with 12 samples.

Results

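The comparison described here sets luminal mammary epithelial cells of MMTVRANK mice against those of WT mice, over all genes outside the milk and proliferation programmes. It rests on the 6 libraries whose titles name the luminal population, of 12 libraries in the series: 3 titled MMTVRANK and 3 titled WT. MMTVRANK names a transgene in which the promoter of the mouse mammary tumour virus, active in mammary epithelium, drives Rank. The other animals are labelled WT. In both genotypes the glands were disaggregated with enzymes and live cells were sorted on the surface markers CD24 and CD49f, and the labels give no age, sex, strain, hormonal state or treatment. RNA was sequenced from each sorted population as a whole, so fewer cells of a type and less RNA per cell cannot be told apart. The labels do not say that replicates were separate animals, and the p-values then measure only the spread between these libraries, which may be technical.

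Rank, encoded by Tnfrsf11a, is a receptor of the tumour necrosis factor receptor superfamily. When its ligand Rankl binds, adaptor proteins of the Traf family activate NF-kB, and the p38, Jnk and Akt branches, which change transcription. In the mammary gland Rankl is made by hormone-sensing luminal cells in response to progesterone and acts on neighbouring Rank-bearing cells, where it is known for driving proliferation and the expansion of progenitor cells.

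The titled population was checked against markers. Summed pan-luminal markers reached 17524 to 24956 CPM (read counts after scaling for library size) in WT luminal and 11784 to 16286 CPM in MMTVRANK luminal libraries, against 1693 to 2723 CPM in the basal ones. Summed basal markers lay between 1183 and 1887 CPM in luminal libraries and between 36952 and 47934 CPM in basal ones. MMTVRANK luminal replicate 3 stood apart in leukocyte markers, at 1314 CPM against 132 to 171 CPM in the other 5, and in red blood cell markers, at 139 CPM against 3.68 to 37.1 CPM. Its level of Ptprc, the pan-leukocyte surface protein CD45, was 48.7 CPM and lay between 0.384 and 1.72 CPM in the other luminal libraries. The T cell gene Cd3e was at 0.586 CPM there and at 0 to 0.898 CPM in the other 5. The luminal libraries held 13183856 to 15069578 counts each. WT luminal replicate 1 had 19472 genes with a count, against 23144 to 25591 in the other luminal libraries. Its mitochondrially encoded genes summed to 2464 CPM, against 6553 to 10350 CPM. What sets this library apart was not tested. For both libraries titled WT replicate 2, the title and the cell subtype field name opposite populations, and the titles were followed. The marker sums above include these libraries under their titles. The basal keratin gene Krt14 stood at 8.16 CPM in the one titled luminal and at 2993 CPM in the one titled basal, so the markers went with the titles.

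Tnfrsf11a did not separate the genotypes by the test. It stood at 319, 156 and 238 CPM in MMTVRANK luminal replicates 1, 2 and 3 and at 6.36, 90.8 and 9.91 CPM in WT luminal replicates 1, 2 and 3. The groups did not overlap, but the library labelled WT luminal replicate 2 lay far above the other WT ones, so every direction below takes that label as it stands. The log2 fold change was 2.74 (SE 0.89, n = 3 per group, adjusted p = 0.224), and without that library it was 4.87 with adjusted p = 0.0281. Every adjusted p is that of the quasi-likelihood test in edgeR, adjusted over all genes tested by Benjamini-Hochberg. The ligand gene Tnfsf11 (Rankl), outside the naming rule and given for its role, held 0.823, 0.213 and 51.6 CPM in WT and 0.204, 33.5 and 25.6 CPM in MMTVRANK, with overlapping groups.

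Of 18236 genes tested, 17 rose (0.0932%) and 29 fell (0.159%) in MMTVRANK luminal cells at an adjusted p under 0.05, 46 in all (0.252%). The milk and proliferation lists held 8 of them, the fallers Spp1, Lalba, Csn3 and Btn1a1 and the risers Pola1, Atad2, Tyms and Skp2, which are set aside here, and 3 more carry clone names. The remaining 35 genes were 24 that fell and 11 that rose. Those that fell include Epb41l3 of the membrane skeleton, the collagen genes Col11a1 and Col25a1, the cell surface genes Scarf2 and Heg1, the secreted Lcn2 and Hp, and the transcription factor genes Hey1 and Fosb. Those that rose include the receptor gene Ephb2, the hormone gene Pthlh, the Wnt antagonist genes Apcdd1 and Shisa2, and the kinase gene Map2k6. In all 46 the genotypes did not overlap, and neither did they in 16.9% of all genes tested (10.1% with MMTVRANK higher and 6.82% with it lower). Over all genes tested, 2183 of 18236 had an unadjusted p under 0.05 in the fit on groups. Positive log2 fold changes made up 52.8% of all genes tested and negative ones 46.8%. With the replicate number as a block 103 genes (0.565%) passed adjusted p 0.05, 37 higher (0.203%) and 66 lower (0.362%). Of these 103, 43 were among the 46.

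The count moved with the libraries left out, the basal ones included, which share in the estimate of spread. It was 4, 3 and 5 without MMTVRANK basal replicate 1, 2 or 3, and 20 without WT basal replicate 1. Without both libraries labelled WT replicate 2 it was 81, and 21 of the 24 lower and 3 of the 11 higher genes still passed. Without MMTVRANK luminal replicate 3, the one with leukocyte markers, it was 11, and 5 of the lower and 1 of the higher genes still passed. With WT luminal replicate 1 left out it was 7 (5 lower and 0 higher of the 35), and with WT luminal replicate 3 left out 14 (7 lower and 0 higher). With RLE size factors in place of TMM 15 rose and 41 fell, so the split between directions depends on the scaling.

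**Figure D1:**
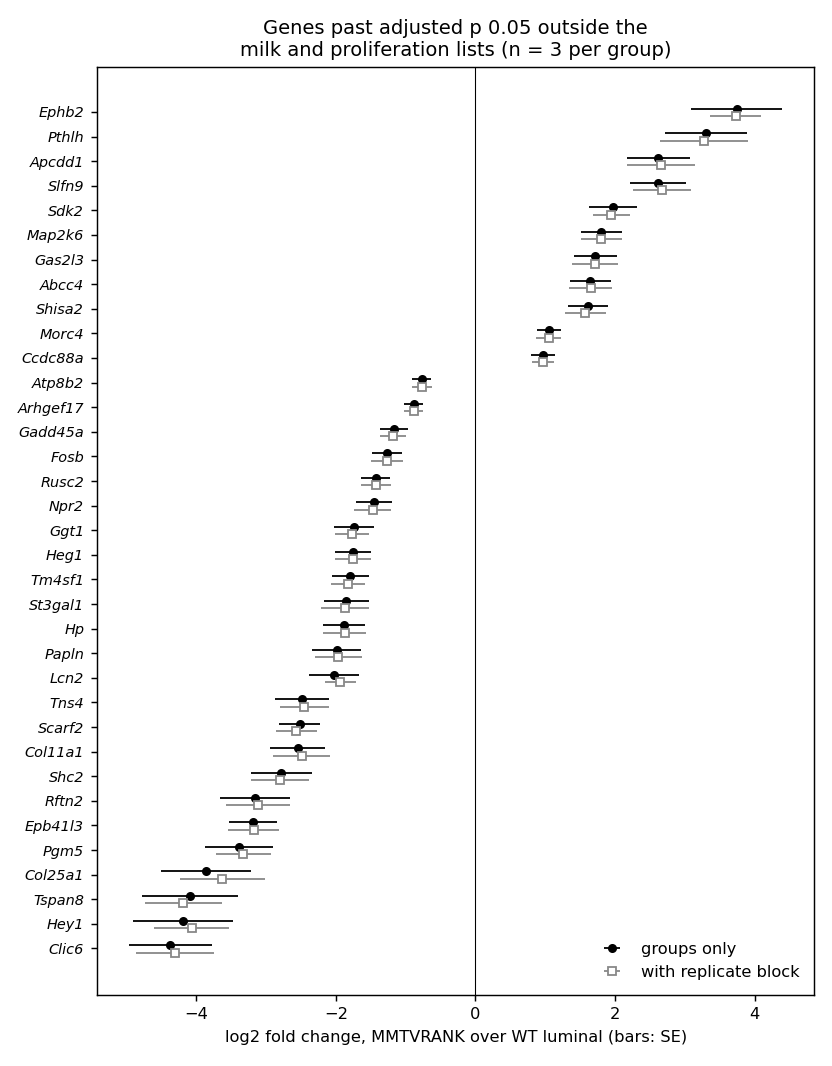
Log2 fold change, MMTVRANK over WT luminal (x axis), with its SE, for the 35 genes (y axis) past adjusted p 0.05 outside the milk and proliferation lists. Black circles are the fit on groups and open squares the fit with the replicate block; the values run from -4.37 for Clic6 to 3.74 for Ephb2 and the 2 fits lie close together.

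Promoters are shown for 3 of the genes, since Rank acts through NF-kB: Epb41l3, which had the smallest p of the genes described here, Ephb2, which rose furthest of the 35, and Lcn2, known as an NF-kB target in epithelia, which fell. Each run is the 250 bases before the transcription start in RefSeq on GRCm38.p6, 5′ to 3′ on the gene's strand, with matches to a short NF-kB motif on either strand in capitals. The motif searched is 3 G, any 5 bases, then 2 C. They lie at chr17:69075427-69075676 on the plus strand for Epb41l3 (the first of 3 promoters listed), at chr4:136836013-136836262 on the minus strand for Ephb2, and at chr2:32387740-32387989 on the minus strand for Lcn2.
Epb41l3: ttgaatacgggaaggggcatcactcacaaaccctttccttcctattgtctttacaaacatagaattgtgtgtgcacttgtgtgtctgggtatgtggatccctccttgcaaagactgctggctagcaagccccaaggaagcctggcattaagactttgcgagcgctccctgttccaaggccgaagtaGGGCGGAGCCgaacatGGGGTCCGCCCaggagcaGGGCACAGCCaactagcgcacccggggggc
Ephb2: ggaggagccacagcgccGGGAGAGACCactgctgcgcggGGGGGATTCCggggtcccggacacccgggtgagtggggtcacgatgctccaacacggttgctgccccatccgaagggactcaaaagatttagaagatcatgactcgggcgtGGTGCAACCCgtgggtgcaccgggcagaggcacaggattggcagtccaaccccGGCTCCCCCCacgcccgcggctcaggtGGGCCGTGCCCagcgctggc
Lcn2: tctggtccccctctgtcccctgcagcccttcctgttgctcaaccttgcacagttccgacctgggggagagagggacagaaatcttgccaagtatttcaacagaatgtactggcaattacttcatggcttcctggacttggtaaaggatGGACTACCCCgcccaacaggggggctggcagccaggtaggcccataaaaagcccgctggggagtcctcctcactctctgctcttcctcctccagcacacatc
The motif, which overlaps itself in GC-rich runs, matched 4, 6 and 1 times in these windows. It is a common motif: of 13755 promoters of 10720 tested genes that matched the table, 61.0% held it. Without the milk and proliferation genes, and with the clone names, 25 promoters of 17 genes that fell and 13 promoters of 10 genes that rose matched, and 76.0% and 53.8% of them held it. The RBPJ motif TGGGAA, bound by the Notch effector, was in 30.8% of the promoters of these genes that rose, 12% of those that fell and 20.9% of all. The AP-1 motif TGANTCA was in 7.69%, 0% and 4.88%, and the E2F motif TTTNNCGC in 7.69%, 4.0% and 6.47%. The motif CTTTGAT of TCF and LEF was in 0%, 4.0% and 2.35%, and the STAT motif TTCNNNGAA in 0%, 4.0% and 6.06%. All were searched on both strands, and with so few promoters 1 match moves a share by several percent.

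Epb41l3, a 4.1 family protein that ties membrane proteins to the actin and spectrin skeleton (chromosome 17, 69075683 to 69289989, plus strand), held 24.5, 25.1 and 28.9 CPM in WT replicates 1, 2 and 3 and 3.20, 1.92 and 3.51 CPM in MMTVRANK. The WT libraries lay close together and every MMTVRANK library was far below them. Its log2 fold change was -3.18 (SE 0.34, adjusted p = 0.00921). Tns4, a tensin of focal adhesions, held 11.6, 20.1 and 37.2 CPM in WT and 2.65, 4.35 and 5.21 CPM in MMTVRANK and fell by 2.49 (SE 0.39, adjusted p = 0.0387). Pgm5, an actin-associated protein of adherens junctions, held 4.94, 4.75 and 14.7 CPM in WT against 0.681, 0.384 and 1.23 CPM. It fell by 3.38 (SE 0.49, adjusted p = 0.0332), and by 2.69 without WT luminal replicate 3, its highest library. Epb41l3 passed with each of the 12 libraries left out in turn, Pgm5 with 9 of them left out and Tns4 with 6.

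Arhgef17, a guanine nucleotide exchange factor, held 207, 231 and 232 CPM in WT and 119, 129 and 114 CPM in MMTVRANK, and fell by 0.89 (SE 0.13, adjusted p = 0.0332). The replicates of each genotype differed little and the groups were clearly apart. Rusc2, a vesicle transport adaptor, averaged 10.3 ± 2.30 CPM in WT and 3.83 ± 0.563 CPM (SD, n = 3) in MMTVRANK and fell by 1.43 (SE 0.21, adjusted p = 0.0332). Rftn2, a lipid raft protein, fell by 3.16 (SE 0.50) and the adaptor gene Shc2, which couples receptor tyrosine kinases to Ras, fell by 2.78 (SE 0.44). Their adjusted p-values were 0.0387 and 0.0385, and both passed in 5 or fewer of the 12 fits without 1 library. Of 31 tested genes of the membrane skeleton list, Epb41l3 alone passed, 14 values were positive and 17 negative, and the median was -0.07 against 0.03 over all genes tested. Of its paralogs, Epb41l2 had 1.28 (adjusted p = 0.334) and Epb41l1 -0.46 (adjusted p = 0.263).

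Scarf2, a scavenger receptor family protein of the cell surface, held 15.2, 18.8 and 13.2 CPM in WT and 2.04, 2.05 and 4.1 CPM in MMTVRANK. No library came near those of the other genotype, and Scarf2 fell by 2.52 (SE 0.29, adjusted p = 0.00921), a call kept with each library left out. Heg1, a transmembrane protein linked to junctions, was steady in WT at 206, 193 and 205 CPM and lower in MMTVRANK at 48.9, 74.9 and 55.8 CPM. It fell by 1.75 (SE 0.26, adjusted p = 0.0332). The tetraspan proteins Tm4sf1 and Tspan8 differed in level and in spread. Tm4sf1 held 229, 223 and 303 CPM in WT and 59.2, 106 and 53.1 CPM in MMTVRANK (log2 fold change -1.79, SE 0.27, adjusted p = 0.0332). Tspan8, a progenitor marker, held 15.8, 7.87 and 27.4 CPM in WT and 1.97, 0.384 and 0.644 CPM in MMTVRANK (log2 fold change -4.08, SE 0.69, adjusted p = 0.0421).

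The matrix genes with a call were Col11a1, a fibrillar collagen, Col25a1, a transmembrane collagen, and Papln, a proteoglycan-like matrix protein. Col11a1 held 14.9, 10.5 and 34.4 CPM in WT and 3.47, 2.88 and 3.87 CPM in MMTVRANK and fell by 2.55 (SE 0.40, adjusted p = 0.0387). Col25a1 held 3.59, 3.05 and 17.4 CPM in WT and 0.408, 0.703 and 0.527 CPM in MMTVRANK. In both collagens WT replicate 3 was well above the other WT libraries, and without it the values were -1.95 for Col11a1 and -2.63 for Col25a1, against -3.85 (SE 0.65, adjusted p = 0.0421) for Col25a1 with it. Papln averaged 81.1 ± 17.7 CPM in WT and 20.5 ± 3.56 CPM (SD, n = 3) in MMTVRANK and fell by 1.98 (SE 0.35, adjusted p = 0.0457). The collagen list as a whole gave no single direction. Of 40 values 25 were positive and the median was 0.44, but it was -0.22 without MMTVRANK luminal replicate 3. Wholly below WT lay 4 (10%) and wholly above 0, against 6.82% and 10.1% of all genes tested. The summed CPM of the list was 1107, 1346 and 1107 in WT and 819, 983 and 950 in MMTVRANK. Of 33 integrins and laminins, which tie cells to the basement membrane, none passed edgeR's test (13 at an unadjusted p under 0.05), and in 10 (30.3%) every MMTVRANK library was below every WT one, against 6.82% of all genes tested. Lama5, a laminin chain, held 759, 781 and 887 CPM in WT and 438, 512 and 277 CPM in MMTVRANK (log2 fold change -0.98, adjusted p = 0.0838).

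**Figure D2:**
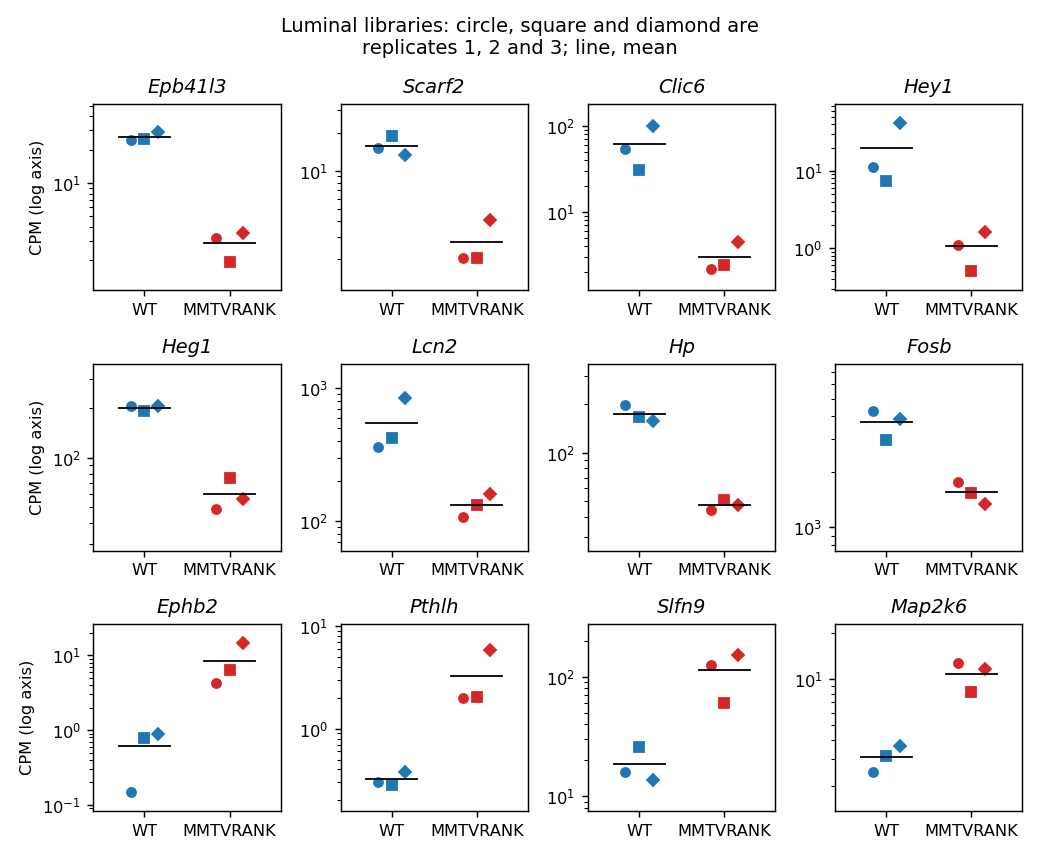
CPM (y axes, log scale, each panel with its own range) of 12 genes in the 3 WT and 3 MMTVRANK luminal libraries, with the replicate number as the marker shape and a line at the mean. In every panel the genotypes do not overlap, with the tightest WT values for Heg1 (193 to 206 CPM) and Epb41l3 (24.5 to 28.9 CPM), while WT replicate 3 lies well above the other WT libraries for Hey1, Clic6 and Lcn2.

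Hp, haptoglobin, which binds free haemoglobin, held 199, 168 and 157 CPM in WT and 44.2, 50.6 and 47.2 CPM in MMTVRANK. It fell by 1.88 (SE 0.31, adjusted p = 0.0387), with little spread in either genotype. Lcn2, lipocalin 2, which binds bacterial siderophores, held 363, 424 and 841 CPM in WT and 109, 133 and 160 CPM in MMTVRANK and fell by 2.02 (SE 0.36, adjusted p = 0.0457). WT replicate 3 was highest for Lcn2, and without it the value was -1.60 with adjusted p = 0.109. Both calls held in few fits without 1 library, 3 of 12 for Hp and 2 of 12 for Lcn2. Of 22 tested acute phase and antibacterial genes 2 fell, and 4 fell with the replicate block, Lrg1 and Chil1 besides these. In 8 (36.4%) every MMTVRANK library was below every WT one, against 6.82% of all genes tested. Lrg1, a leucine-rich acute phase glycoprotein, held 32.0, 26.9 and 69.4 CPM in WT and 3.40, 7.54 and 11.2 CPM in MMTVRANK (adjusted p = 0.113, and 0.0387 with the block). The list's median was -0.06 and its values were evenly divided, 11 positive and 11 negative. Without MMTVRANK luminal replicate 3, the library with leukocyte markers, the median was -0.59, and the part of those cells was not tested.

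Hey1, a repressor that Notch switches on, held 11.2, 7.38 and 41.1 CPM in WT and 1.09, 0.511 and 1.64 CPM in MMTVRANK. It fell by 4.19 (SE 0.71, adjusted p = 0.0430), but WT replicate 3 was far above the rest, and without that library the value was -3.14 with adjusted p = 0.0971. Its relative Hey2 stood at 2.77, 1.06 and 2.6 CPM in WT and 0.136, 0.192 and 0.234 CPM in MMTVRANK (log2 fold change -3.45, adjusted p = 0.191). Numb, an inhibitor of Notch, had -0.59 (adjusted p = 0.148). Of 29 Notch pathway genes Hey1 alone fell, 13 values were positive and 16 negative. Wholly below WT lay 7 (24.1%) and wholly above 2 (6.9%), against 6.82% and 10.1% of all genes tested. The median was -0.04, and its sign changed with limma-voom, with the replicate block, and without WT or MMTVRANK luminal replicate 1.

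Fosb, an AP-1 subunit, was abundant and clearly divided by genotype. It held 4294, 2985 and 3876 CPM in WT and 1767, 1529 and 1340.4 CPM in MMTVRANK, and fell by 1.27 (SE 0.22, adjusted p = 0.0457). Gadd45a, a stress-induced regulator of growth arrest and repair, held 169, 197 and 138 CPM in WT and 87.3, 85.8 and 50.9 CPM in MMTVRANK. It fell by 1.17 (SE 0.20, adjusted p = 0.0457). Each passed with 4 of the 12 libraries left out in turn. Klf4, an early response and lineage factor, held 323, 248 and 266 CPM in WT and 153, 126 and 145 CPM in MMTVRANK (log2 fold change -0.98, SE 0.21, adjusted p = 0.0782). Of 38 AP-1 and immediate early genes 2 fell and 30 values (78.9%, against 46.8% of all genes tested) were negative. All MMTVRANK libraries were below WT in 8 (21.1%), against 6.82% of all genes tested. The median was -0.35, and it stayed between -0.46 and -0.26 in the 20 alternative fits. These genes are also known to respond to tissue dissociation, and how long the glands were digested is not given in the sources used here.

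Transport, enzyme and receptor genes made up the rest of those that fell. Clic6, a chloride channel protein, held 53.5, 31.0 and 101 CPM in WT and 2.18, 2.37 and 4.39 CPM in MMTVRANK. It had the lowest value of the 35 and fell by 4.37 (SE 0.59, adjusted p = 0.0286), and passed with 10 of the 12 libraries left out in turn. St3gal1, which adds sialic acid to O-linked sugars, held 299.6, 190.5 and 236 CPM in WT and 71.5, 89.4 and 40.7 CPM in MMTVRANK and fell by 1.85 (SE 0.32, adjusted p = 0.0457, and 0.0529 with the block). Ggt1, which breaks down extracellular glutathione, held 97.8, 51.4 and 61.2 CPM in WT and 23.3, 26.4 and 13.2 CPM in MMTVRANK and fell by 1.74 (SE 0.29, adjusted p = 0.0399). All 3 were apart by genotype. Npr2, the receptor of C-type natriuretic peptide, fell by 1.45 (SE 0.26) and Atp8b2, a lipid flippase, fell by 0.77 (SE 0.14), both at adjusted p = 0.0457. Atp8b2 had the smallest drop and little spread, at 65.7, 60.8 and 60.8 CPM in WT and 34.0, 38.0 and 37.7 CPM in MMTVRANK, and its call held with 1 of the 12 libraries left out. Of 30 chloride channel and aquaporin genes Clic6 alone passed, and Cftr, a chloride channel, stood at 0, 0.142 and 0.318 CPM in WT and 0.749, 4.48 and 17.5 CPM in MMTVRANK (adjusted p = 0.105).

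Genes that rose were led by signalling genes of low WT luminal level. Ephb2, an Eph receptor tyrosine kinase of cell positioning (chromosome 4, 136647539 to 136835988, minus strand), held 0.150, 0.780 and 0.889 CPM in WT (27 counts over the 3 libraries) and 4.22, 6.33 and 14.5 CPM in MMTVRANK (408 counts). It rose by 3.74 (SE 0.65, adjusted p = 0.0457, and 0.00593 with the block). Pthlh, parathyroid hormone-like hormone, which acts on calcium balance and mammary development, held 0.299, 0.284 and 0.381 CPM in WT (14 counts) and 1.97, 2.05 and 5.80 CPM in MMTVRANK (160 counts). It rose by 3.31 (SE 0.59, adjusted p = 0.0457, and 0.0506 with the block). For both, MMTVRANK replicate 3 was the highest, and without it the values were 3.05 and 2.57 with adjusted p = 0.0989 and 0.123. Apcdd1, a membrane-bound Wnt inhibitor, held 1.20, 0.851 and 0.572 CPM in WT and 3.61, 5.11 and 7.44 CPM in MMTVRANK and rose by 2.62 (SE 0.46, adjusted p = 0.0457). WT basal means were far above these WT luminal levels, at 23.3 CPM for Ephb2, 9.91 CPM for Pthlh and 13.4 CPM for Apcdd1. The part of basal cells in the luminal levels of these genes was not tested.

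Shisa2, which retains Frizzled and Fgf receptors in the endoplasmic reticulum, held 14.1, 24.5 and 20.5 CPM in WT and 46.0, 45.1 and 90.0 CPM in MMTVRANK. It rose by 1.61 (SE 0.29, adjusted p = 0.0457). Map2k6, the kinase that activates p38, held 2.47, 3.12 and 3.62 CPM in WT and 12.6, 8.18 and 11.5 CPM in MMTVRANK and rose by 1.81 (SE 0.29, adjusted p = 0.0387). It was the only one of 41 tested genes of the Rank pathway and NF-kB list to pass. In that list 24 values (58.5%, against 52.8% of all genes tested) were positive and the median was 0.08. Traf5, an adaptor of the receptor family, had 1.65 (adjusted p = 0.155). Tnfrsf11b, osteoprotegerin, the decoy receptor of Rankl, was at 0, 0.0709 and 0 CPM in WT and 0, 1.21 and 16.0 CPM in MMTVRANK, so its difference rests on replicate 3. Without MMTVRANK luminal replicate 3 the calls of Shisa2, Map2k6 and Apcdd1 ended (adjusted p = 0.130, 0.10 and 0.123). The WT basal means of Map2k6, Traf5 and Tnfrsf11b, 15.3, 24.9 and 39.2 CPM, were above their WT luminal means. That of Shisa2, 13.9 CPM, was below its WT luminal mean of 19.7 CPM. The part of basal cells in these luminal levels was not tested.

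The other genes that rose are of several kinds. Slfn9, a Schlafen family gene, held 15.9, 25.9 and 13.5 CPM in WT and 125, 60.7 and 153 CPM in MMTVRANK, a rise of 2.62 (SE 0.40, adjusted p = 0.0385). Abcc4, an exporter of cyclic nucleotides and prostaglandins, held 29.6, 35.4 and 46.4 CPM in WT and 147, 138 and 64.3 CPM in MMTVRANK and rose by 1.65 (SE 0.30, adjusted p = 0.0457). Unlike most genes that rose, Abcc4 was lowest in MMTVRANK replicate 3, and without that library it rose by 1.90 with adjusted p = 0.00955. Gas2l3, a linker of actin and microtubules that acts in cytokinesis, averaged 6.22 ± 1.88 CPM in WT and 20.5 ± 7.63 CPM (SD, n = 3) in MMTVRANK and rose by 1.72 (SE 0.30, adjusted p = 0.0457). Ccdc88a, the actin-binding protein girdin, rose by 0.97 (SE 0.17) and Morc4, a chromatin-associated ATPase, by 1.05 (SE 0.17). Their adjusted p-values were 0.0457 and 0.0387, and Morc4 was even within genotypes, at 7.48, 9.01 and 7.31 CPM in WT and 16.5, 14.8 and 17.9 CPM in MMTVRANK. Sdk2, an adhesion protein of the immunoglobulin superfamily, averaged 0.604 ± 0.153 CPM in WT (26 counts over 3 libraries) and 2.38 ± 0.914 CPM in MMTVRANK (114 counts). It rose by 1.97 (SE 0.35, adjusted p = 0.0457). In basal libraries Sdk2 averaged 183 CPM in WT and 226 CPM in MMTVRANK. The part of basal cells in its luminal level was not tested.

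Of 53 Wnt pathway genes Apcdd1 alone passed, and 25 values were positive and 28 negative. In all, 8 (15.1%) lay wholly above and 6 (11.3%) wholly below WT, against 10.1% and 6.82% of all genes tested. Axin2, a feedback target of Wnt signalling, held 0.898, 1.56 and 1.21 CPM in WT and 6.81, 2.62 and 14.4 CPM in MMTVRANK (log2 fold change 2.69, SE 0.56, adjusted p = 0.0756). Nkd1, another feedback inhibitor, stood at 0.0748, 0 and 0.445 CPM in WT and 1.29, 1.15 and 2.81 CPM in MMTVRANK. In both genes the groups were apart although neither passed. Their WT basal means, 24.7 CPM for Axin2 and 113 CPM for Nkd1, were far above the luminal levels. The part of basal cells in these levels was not tested. Of 62 Eph receptors and guidance genes Ephb2 alone rose. Ephb6, a kinase-dead relative, held 156, 87.3 and 89.8 CPM in WT and 47.4, 49.2 and 30.9 CPM in MMTVRANK (log2 fold change -1.38, adjusted p = 0.0520, and a fall at 0.0470 with the block), while Epha7 had 1.28 (adjusted p = 0.0999).

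**Figure D3:**
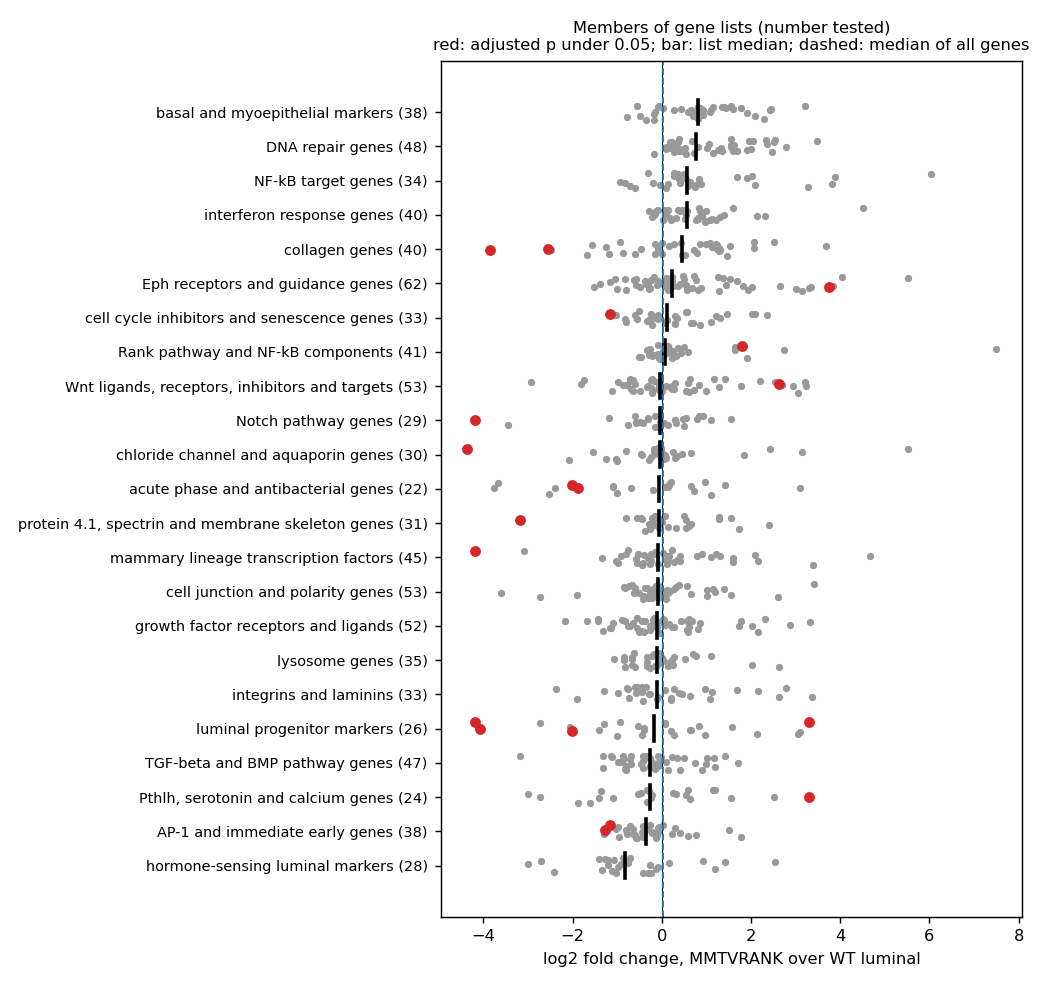
Log2 fold change, MMTVRANK over WT luminal (x axis), of every tested member of 23 gene lists (y axis, number tested in brackets), with members past adjusted p 0.05 in red, list medians as black bars and the median over all genes as a dashed line. The medians run from -0.84 for hormone-sensing markers to 0.82 for basal and myoepithelial markers, and few members of any list are red.

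Several lists held many members apart by genotype and few or none past the test. Of 28 tested hormone-sensing luminal markers none passed edgeR's test (9 at an unadjusted p under 0.05). Negative values numbered 23 (82.1%, against 46.8% of all genes tested), with a median of -0.84 over the list. Wholly below WT lay 9 (32.1%), against 6.82% of all genes tested. Tph1, the first enzyme of serotonin synthesis, held 358, 425 and 596 CPM in WT and 38.5, 85.3 and 48.4 CPM in MMTVRANK (log2 fold change -3.0, SE 0.64, adjusted p = 0.0850). With the replicate block 3 of the list fell, among them Gpx3, a secreted glutathione peroxidase (adjusted p = 0.0454, and 0.601 without it). Cbr2, a carbonyl reductase (log2 fold change -2.41), and the calcium-binding gene S100a6 (-1.03) fell with the replicate block, at adjusted p = 0.0213 and 0.0259, and not without it (adjusted p = 0.0574 and 0.256). Of 26 luminal progenitor markers Tspan8, Hey1 and Lcn2 fell and Pthlh rose, so that its called members did not share a direction. Summed pan-luminal markers were lower in every MMTVRANK library than in any WT one, and whether this bears on these lists was not tested.

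Of 47 tested TGF-beta and BMP genes none passed edgeR's test (12 at an unadjusted p under 0.05). Negative values numbered 33 (70.2%, against 46.8% of all genes tested), with a median of -0.26 over the list. Wholly below WT lay 13 (27.7%), against 6.82% of all genes tested. The ligand gene Tgfb3 held 180.1, 124 and 190.0 CPM in WT and 72.2, 80.0 and 111 CPM in MMTVRANK (log2 fold change -0.91, adjusted p = 0.0999) and the protease gene Bmp1, which matures collagens, had -0.86 (adjusted p = 0.105). Of 35 lysosome genes none passed edgeR's test (11 at an unadjusted p under 0.05) and 11 (31.4%) lay wholly below WT. Of 45 mammary lineage transcription factors Hey1, described above, alone passed. Wholly below WT lay 11 (24.4%) and wholly above 4 (8.89%), against 6.82% and 10.1% of all genes tested. Runx1 had the next smallest p, with -1.02 (SE 0.21, adjusted p = 0.0720), at 718, 613 and 667 CPM in WT and 389, 342 and 253 CPM in MMTVRANK.

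All but 1 of 48 tested DNA repair genes had a positive value, the median was 0.76, and 30 (62.5%) lay wholly above WT against 10.1% of all genes, while none passed edgeR's test and 24 had an unadjusted p under 0.05. The list shares no gene with the proliferation list, of whose 94 genes 91 lay wholly above WT, and the part of cycling cells in the repair genes was not tested. Rad54l, a recombination helicase, held 2.32, 5.96 and 4.45 CPM in WT and 17.2, 11.2 and 19.3 CPM in MMTVRANK (log2 fold change 1.90, SE 0.38, adjusted p = 0.0720); 1184 of its exon bases overlap Lrrc41 on the other strand, and counts made without strand cannot tell them apart. Brca2 held 10.03, 23.7 and 14.2 CPM in WT and 53.6, 31.0 and 55.1 CPM in MMTVRANK (log2 fold change 1.54, adjusted p = 0.111). Gadd45a also belongs to a list of 33 genes of cell cycle arrest and senescence, where no other passed. Of the 33, 9 (27.3%) lay wholly above and 6 (18.2%) wholly below WT, against 10.1% and 6.82% of all genes tested. Cdkn2c, the p18 inhibitor, had 2.02 (SE 0.53, adjusted p = 0.131) and Ezh2, a Polycomb methyltransferase, 0.85 (adjusted p = 0.0795).

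NF-kB target, interferon and basal genes also had positive medians. For the NF-kB targets and the basal markers, the medians were near 0 without MMTVRANK luminal replicate 3. Of 34 NF-kB targets none passed edgeR's test (11 at an unadjusted p under 0.05) and 27 values were positive with a median of 0.57. This median was 0.04 with 18 positive without that library. Wholly above WT lay 3 of these targets (8.82%) and wholly below 2 (5.88%), against 10.1% and 6.82% of all genes tested. Vcam1, an adhesion molecule for leukocytes, held 0.225, 2.98 and 5.34 CPM in WT and 5.65, 30.5 and 91.5 CPM in MMTVRANK (log2 fold change 3.88, SE 1.12, adjusted p = 0.179). The chemokine gene Ccl20 was at 0, 0 and 1.02 CPM in WT and 0.136, 6.27 and 65.0 CPM in MMTVRANK. Both were highest by far in replicate 3, whose leukocyte markers summed to 1314 CPM. Its basal markers summed to 1887 CPM, against at most 1510 CPM in the other luminal libraries. In WT basal libraries Vcam1 held 56.7, 37.2 and 182 CPM, while Ccl20 averaged 0.146 CPM. Whether other cells supplied either transcript was not tested. Basal and myoepithelial markers had a median of 0.82, and 0.03 without MMTVRANK luminal replicate 3. Of the 38 tested, 3 (7.89%) lay wholly above WT and 2 (5.26%) wholly below. Krt14, the basal keratin, held 0.823, 8.16 and 10.2 CPM in WT and 10.2, 23.8 and 69.2 CPM in MMTVRANK, far below the 3102 CPM mean of WT basal cells. Interferon response genes differed from these 2 lists: 34 of 40 values (85%, against 52.8% of all genes tested) were positive with a median of 0.56. The same number were positive with a median of 0.46 without replicate 3. None of the 40 passed edgeR's test, and 3 had an unadjusted p under 0.05, against 2183 of all 18236 genes tested. Wholly above WT lay 9 (22.5%), against 10.1% of all genes tested. Ifit2, an antiviral RNA-binding protein, had 2.32 (SE 0.70, adjusted p = 0.189).

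The remaining described lists gave no further call by the fit on groups. Of 52 growth factor receptors and ligands, Igfbp5, which binds insulin-like growth factors, held 1377, 1184 and 3979 CPM in WT and 324, 369.8 and 762 CPM in MMTVRANK. It fell by 2.07 with the block (adjusted p = 0.0140) and had -2.17 without it (adjusted p = 0.120). Of 53 cell junction and polarity genes none passed edgeR's test. An unadjusted p under 0.05 was reached by 5 of them, against 2183 of all 18236 genes tested. Negative values numbered 33 (62.3%, against 46.8% of all genes tested). Gjb2, a gap junction protein, had 2.6 (adjusted p = 0.188). In the list of Pthlh, serotonin and calcium genes, Trpv6, a calcium channel, had -1.61 (SE 0.37, adjusted p = 0.0911).

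Fitting the replicate number brought in 60 genes, 22 higher and 38 lower, of which those with the highest and lowest values are given here. The numbers were read as pairing libraries on the data alone. The lowest were Dmbt1, a mucosal defence protein, which fell by 6.18 (adjusted p = 0.0290 with the block and 0.0850 without), and Chil1, a chitinase-like secreted protein, which fell by 3.90 (adjusted p = 0.0281 and 0.152). Dmbt1 held 133, 22.2 and 91.0 CPM in WT and 2.04, 0.639 and 0.762 CPM in MMTVRANK. Chil1 held 28.1, 22.4 and 87.0 CPM in WT and 1.5, 0.959 and 8.2 CPM in MMTVRANK, with replicate 3 highest in each genotype. Tmed3, a cargo receptor of early secretory vesicles, fell by 2.26 (adjusted p = 0.0211 with the block and 0.105 without). Man1a, a mannosidase that trims N-linked sugars, fell by 2.12 (adjusted p = 0.0283 with the block and 0.0838 without). In Tmed3 WT replicate 1 was far above the rest, at 1551 CPM against 373 and 524 CPM. Others that fell were the phosphodiesterase gene Pde7b, Lrrn2, Tmem86a, an enzyme of plasmalogen breakdown, Lrg1, the magnesium transporter gene Slc41a2 and Cbr2.

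Of the genes brought in that rose, Cybrd1, a duodenal-type iron reductase, had the highest value, 5.4 (adjusted p = 0.0470 with the block and 0.0799 without). It held 0.0748, 0.0709 and 0.635 CPM in WT and 0.749, 9.72 and 30.2 CPM in MMTVRANK, so replicate 3 was highest in both genotypes. Itga1, the collagen-binding integrin subunit, rose by 3.28 (adjusted p = 0.0470), from 0.268 to 2.91 CPM on average. The protocadherin gene Pcdh18 rose by 3.21 (adjusted p = 0.0259), from 0.310 to 2.92 CPM. Their WT basal means were 140 and 83.6 CPM, and the part of basal cells was not tested. St6gal1, which adds sialic acid to N-linked sugars, rose by 2.34 (adjusted p = 0.0293), at 0.898, 4.11 and 5.78 CPM in WT and 9.60, 14.9 and 29.6 CPM in MMTVRANK. St3gal1, for O-linked sugars, went the other way in the fit on groups. Pbk and Mastl, kinases of mitosis, rose by 3.54 and 2.40 (adjusted p = 0.0364 and 0.0470), and so did Sspo, Cpne2, Cep128, a centriole protein, and Prickle2, a planar polarity protein.

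The WT basal mean was above the WT luminal mean for 17 of the 24 genes that fell and 8 of the 11 that rose, against 52.6% of all genes tested. None of the 46 was called between genotypes in basal cells, where 1 gene passed in all, and 29 of the 46 had the same sign there. The difference between the genotype effects in the 2 populations passed for 1 gene, Epb41l3, and 1410 genes had an unadjusted p under 0.05 for it. In basal cells Epb41l3 held 49.1, 86.2 and 32.8 CPM in WT and 96.1, 78.4 and 73.0 CPM in MMTVRANK, with overlapping groups. Its log2 fold change was 0.56 there (SE 0.30) and the difference, luminal minus basal, was -3.74 (SE 0.46, adjusted p = 0.0420, and 0.107 with the replicate block). Ephb2 held 11.9, 27.1 and 30.8 CPM in WT basal libraries and 35.8, 39.6 and 69.5 CPM in MMTVRANK ones, a log2 fold change of 1.05 (SE 0.53), and its difference of effects, 2.69 (SE 0.82), did not pass (adjusted p = 0.484). For Pthlh the basal value was -0.27 (SE 0.49) and the difference 3.58 (SE 0.76, adjusted p = 0.285).

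**Figure D4:**
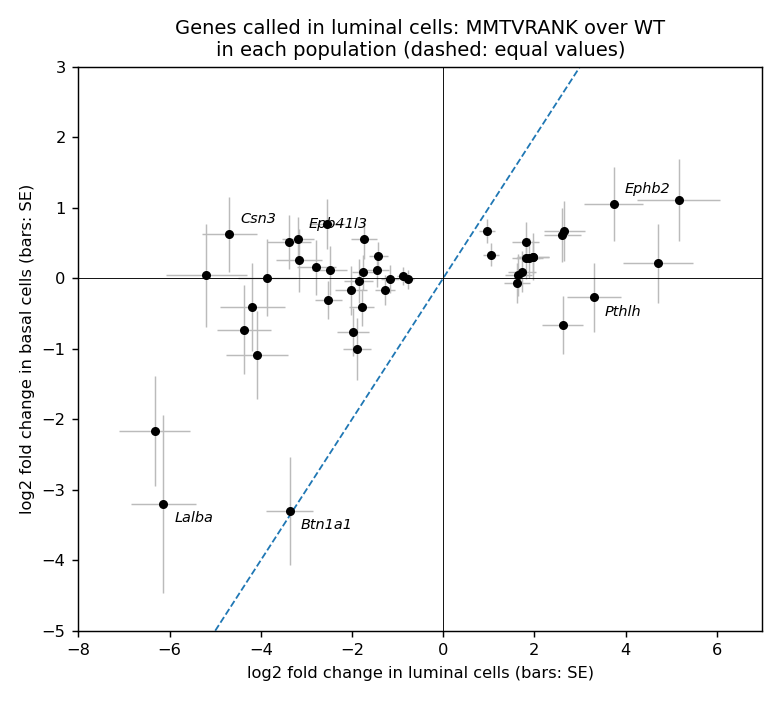
Log2 fold change, MMTVRANK over WT, in luminal cells (x axis) and in basal cells (y axis), with the SE of each, for the 46 genes called in luminal cells; the dashed line marks equal values. Most basal values lie near 0, with Epb41l3 at -3.18 in luminal and 0.56 in basal cells, and Btn1a1 close to the line.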

How the data were processed

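The authors deposited whole-number read counts for each gene symbol, from featureCounts 1.5.2 on GENCODE M17 with no strand option, per the file headers. Per the submitters' processing notes, reads were aligned with STAR 2.6.1b to GRCm38.p6 and counted with Subread 1.5. The labels' protocols name a SMARTer Pico kit, which keeps strand. The 53735 symbols (15946 without a count) were filtered by group with a count minimum of 10, which left 18236 genes, and fitted over all 12 libraries and 4 groups. The fit was edgeR 4.0.16's quasi-likelihood test with TMM and robust spread in R 4.3.3 (biological coefficient of variation 0.450). The contrast was MMTVRANK minus WT luminal, groups followed the titles, and Benjamini-Hochberg adjustment covered all genes with a threshold of 0.05. SEs were taken from the F statistic and the fold change. CPM were scaled by TMM. Alternatives were DESeq2 1.42.0, limma-voom (limma 3.58.1), RLE size factors, no filter, luminal libraries alone, the replicate number as a block, and libraries left out.

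Replicate numbers are shared by the genotypes, with no label on what they mark. Same-numbered luminal libraries deviated from their group means together, with correlations of 0.525, 0.125 and 0.392 over 10082 genes. Differently numbered ones had -0.492 to 0.0581, so the value for replicate 2 was little above these. Deviations from a group mean are tied to each other, so the correlations are not independent. The numbers were read as pairing libraries, on the data alone. No pair of luminal libraries looked like a duplicate (lowest chi-square by degree of freedom 25.5).

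The comparison, the 46 gene lists (1456 genes, 1336 tested) and the tests were chosen with earlier results of these data known, and lists are described without a test. Named were all genes past the threshold without a predicted or clone name; of those past it with the block alone, with average log2 CPM of 2 or more and outside the set-aside lists, the 10 highest and 10 lowest; Tnfrsf11a; and up to 3 members with the smallest p of 23 described lists, some of which are not reported here. Epb41l2, Epb41l1, Tnfsf11, Ptprc and Cd3e were added for their roles. Called genes with an exon overlap of up to 500 bases on the other strand are Rusc2, Heg1, Shc2, Rftn2, Tspan8, Gadd45a and Npr2, with a partner under 2 CPM on average. Promoters are from RefSeq. The scripts were tested on simulated data with less spread than these libraries, no replicate effect, and changes planted only in genes of higher counts. The rate of false calls in these libraries was therefore not measured.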

Additional observations from a re-analysis of the deposited data

Results flagged for a closer look

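The effect of the genotype on Epb41l3 differed between luminal and basal cells. It fell by 3.18 on the log2 scale in luminal cells and had 0.56 in basal cells, a difference of -3.74 (SE 0.46, n = 3 per group, adjusted p = 0.0420 by edgeR's quasi-likelihood test over 18236 genes). In luminal libraries all 3 MMTVRANK values (1.92 to 3.51 CPM) lay below all 3 WT ones (24.5 to 28.9 CPM), while in basal libraries the genotypes overlapped (73.0 to 96.1 CPM in MMTVRANK and 32.8 to 86.2 CPM in WT). With each library left out in turn the difference lay between -4.20 (without WT basal replicate 2) and -3.47 (without WT basal replicate 3). The adjusted p then ranged from 0.00303 to 0.161 and missed the threshold without MMTVRANK basal replicate 1, 2 or 3, WT basal replicate 1, WT luminal replicate 1 or 2, or MMTVRANK luminal replicate 2. It was -4.23 (adjusted p = 0.0168) without both libraries labelled WT replicate 2, and -3.76 (adjusted p = 0.107) with the replicate block. These settings were chosen after seeing the data.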

How the results depend on the processing

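The number of genes past the threshold moved widely with the processing, and the cause was not tested. Against 46 genes (17 higher and 29 lower), DESeq2 gave 727 (459 and 268), limma-voom 29 (4 and 25), no filter on low counts 1353 (934 and 419) and the luminal libraries alone 7 (0 and 7, with 1844 genes at an unadjusted p under 0.05). RLE size factors gave 56 (15 and 41). With the replicate block it was 103 (37 and 66), and with the block on luminal libraries alone 323 (131 and 192). Without both libraries labelled WT replicate 2 it was 81 (38 and 43). With 1 library left out it ranged from 3 to 93, with 0 to 52 higher and 3 to 41 lower; the lowest counts were without MMTVRANK basal replicate 2 (3), 1 (4) and 3 (5), and the highest without WT basal replicate 3 (93). All 46 kept their sign in each fit that tested them, which their separation by genotype largely fixes. Of them Lalba passed in all 20 alternatives, and Epb41l3 and Scarf2 in 19, with adjusted p = 0.0573 for Epb41l3 by limma-voom and up to 0.0920 for Scarf2. The block ended the calls of St3gal1, Abcc4 and Pthlh and of no other of the 46. With 13183856 to 15069578 counts per luminal library, genes under about 1 CPM rest on few counts. No value reversed among those called.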
